A study of Mus musculus with 6 samples.

Results

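Genes of the Wnt, Notch and FGF signalling families were examined in the RNA-seq comparison of siCon- and siH19-transfected myotubes. They were taken by symbol from the authors' deposited table, as every feature whose gene symbol begins with Wnt, Fzd, Dkk, Sfrp, Axin, Rspo, Lrp, Notch, Dll, Jag, Hes, Hey, Fgf, Fgfr, Spry or Spred followed by a number, or is Heyl. This rule took 23 of the 3019 features in the table, of which 2549 carry a gene symbol. The cells were C3H myoblasts, a mouse line that fuses into multinucleated myotubes when serum is lowered, and both groups therefore came from 1 line. The siCon group received a control siRNA and the siH19 group an siRNA against the long noncoding RNA H19, each at 40 h of differentiation, and RNA was taken 48 h later, when the labels give the cells as day 4. Each group had 3 libraries. The deposited table holds 1 log2 FPKM (fragments counted per kilobase of RNA and corrected for sequencing yield) for each group, so the spread between libraries and their depth are unknown. No test across libraries could be run, and every comparison that follows is a description of these group values. All 3019 features are marked as significant by the authors, and a gene absent from the table was not analysed here.

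Wnt proteins are secreted ligands that bind Frizzled receptors (Fzd) with the co-receptors Lrp5 and Lrp6, which stabilises beta-catenin and switches on target genes through TCF/LEF factors. Notch receptors are activated by Delta and Jagged ligands on the neighbouring cell, are cut by ADAM10 and gamma-secretase, and act on Hes and Hey genes through RBPJ. Most FGFs are secreted ligands of the receptor tyrosine kinases Fgfr1 to Fgfr4, which act through Ras and ERK and are held in check by Sprouty (Spry) and Spred proteins. In muscle, Notch and FGF signalling are known for keeping myoblasts from differentiating, and Wnt signalling for parts in both embryonic myogenesis and repair.

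The siRNA's target was lower in siH19, with H19 at 2353 FPKM in siCon and 181 in siH19 (7.69% of siCon). The myotube identity of the cells was seen in both groups. The myotube marker list held 27 symbols, 25 of them in the gene annotation used here. Of the 27, 22 were listed, in 18 features because 1 feature joins 5 myosin heavy chain genes, and all 18 were higher in siH19. Among all listed features 62.8% were higher, and among the 240 with a mean log2 FPKM of at least 6 it was 77.5%. At least 1.5-fold higher were 10 of the 18 marker features, against 37.4% of all listed features. The summed level of the 18 was 16873 FPKM in siCon and 27439 in siH19. Myog, the myogenic factor that marks entry into differentiation, was at 221 and 596 FPKM, and the sarcomeric actin gene Actc1 at 208 and 1010 FPKM. Of 9 myoblast and reserve cell markers only Myf5 was listed (10.6 and 8.17 FPKM), of 9 fibroblast markers only Col1a1 (28.1 and 37.3 FPKM) and of 9 bone and cartilage markers only Runx2 (3.05 and 4.69 FPKM). None of 12 markers of dividing cells and none of 7 adipocyte markers was listed. No marker feature was at the floor of the table. The part of these marker differences in the results on signalling genes was not tested, and in bulk RNA a change in the number of cells of a type cannot be told apart from a change in RNA per cell.

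Of the 23 signalling genes, 17 were higher and 6 lower in siH19, against 62.8% of all listed features higher. A difference of at least 1.5-fold was found for 7 higher and 3 lower genes. Among all listed features, 37.4% were at least 1.5-fold higher and 16.9% at least 1.5-fold lower. Of the 2549 features with a gene symbol, as all 23 have, 784 were at least 1.5-fold higher and 415 at least 1.5-fold lower. By any amount, 60.1% of those with a symbol were higher. The members' counts, 7 and 3 of 23, were close to these shares of the table. Their median difference (siH19 minus siCon) was 0.47 on the log2 scale, against 0.45 over all listed features. Lowering every difference by 0.45 left 3 genes at least 1.5-fold higher and 6 at least 1.5-fold lower. The differences ranged from 1.72 for Fgf21 to -1.92 for Fgf1. Because the table holds only called features, its smallest difference in either direction is 0.31. Just inside the 1.5-fold limit (0.585 on the log2 scale) lay Fgf5 at 0.61, and just outside it lay Lrp1 at 0.57 and Fzd6 at -0.57.

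**Figure D1:**
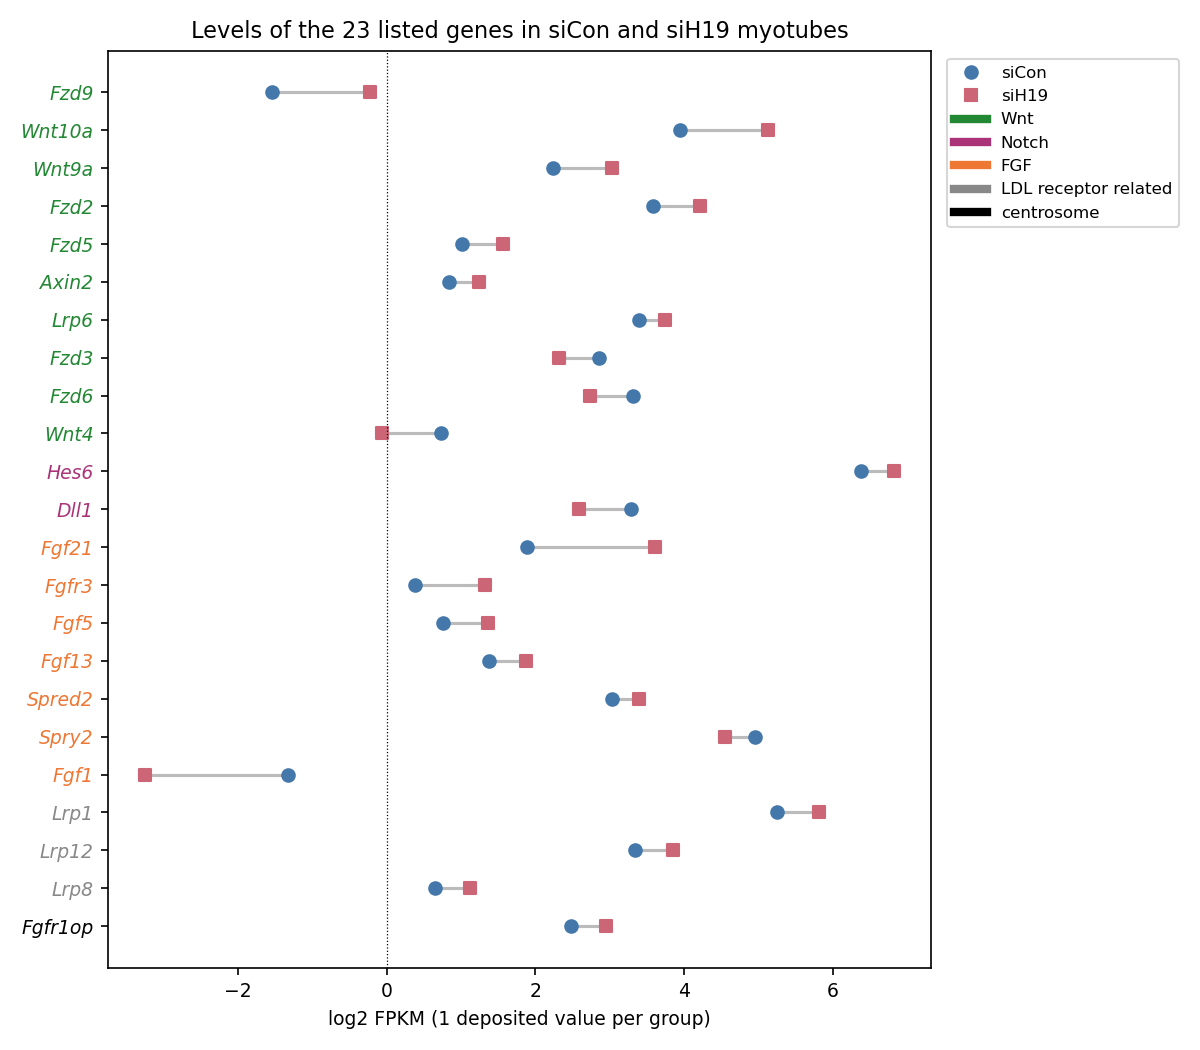
Levels of the 23 listed genes as log2 FPKM (horizontal axis), 1 deposited value per group without error, with siCon as circles and siH19 as squares. Gene names are coloured by pathway and sorted by difference within it. Fgf21 (1.89 to 3.61) and Fgf1 (-1.33 to -3.25) span the longest lines, and Hes6 is the most abundant of the 23 in both groups.

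Rules by symbol also take genes outside these pathways. Lrp1, Lrp8 and Lrp12 belong to the family of low-density lipoprotein receptors but are not the Wnt co-receptors. Fgfr1op encodes a centrosomal protein that owes its name to a gene fusion with FGFR1. Fgf13 is a homologue of the FGFs that is not secreted and binds sodium channels inside the cell. They are kept in the counts and described apart.

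The upstream sequence was read because the study concerns CpG methylation and because the pathways, the myogenic factors and the stress response that acts on Fgf21 have well-known binding motifs. Of the 23 genes, 15 had an entry in the RefSeq promoter table used here (GRCm38.p6, the assembly also called mm10), and for 10 of them a RefSeq start fell exactly on the 5′ end of the assembled locus. The 250 bases before the start were searched on both strands for CAGCTG (the E-box preferred by myogenic factors), CTTTGAT (TCF/LEF), GTGGGAA (RBPJ), TGATGNAA (ATF4) and TATAAA (the TATA box), which do not overlap in the hits below. Printed in capitals are the hits, and bases that GENCODE annotates as exon of the gene were left off the 3′ end. Shown are the genes of these 10 that differed by at least 1.5-fold and kept at least 150 bases. The printed upstream bases lie at chr7:45615491-45615740 (minus strand) for Fgf21, chr5:33721474-33721673 (plus strand) for Fgfr3 and chr11:59306680-59306927 (plus strand) for Wnt9a.
Fgf21: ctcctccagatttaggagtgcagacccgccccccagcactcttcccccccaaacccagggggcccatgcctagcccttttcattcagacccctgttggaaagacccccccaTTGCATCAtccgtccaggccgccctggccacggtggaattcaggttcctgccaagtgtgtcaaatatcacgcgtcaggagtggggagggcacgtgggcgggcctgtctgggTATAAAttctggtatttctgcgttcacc
Fgfr3: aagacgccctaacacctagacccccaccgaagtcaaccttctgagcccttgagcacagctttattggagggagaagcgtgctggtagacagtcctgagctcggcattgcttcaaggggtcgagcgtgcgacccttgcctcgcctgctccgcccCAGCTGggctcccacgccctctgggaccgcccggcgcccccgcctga
Wnt9a: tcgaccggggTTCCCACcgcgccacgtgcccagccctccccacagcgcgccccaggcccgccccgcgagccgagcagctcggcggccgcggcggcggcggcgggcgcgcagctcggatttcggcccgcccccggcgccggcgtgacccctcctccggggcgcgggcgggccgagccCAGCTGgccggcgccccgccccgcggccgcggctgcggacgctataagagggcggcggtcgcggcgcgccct

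The Fgf21 sequence holds TTGCATCA, the ATF4 letters on the reverse strand, from 139 to 132 bases before the start, and TATAAA from 28 to 23 bases before it. Fgf21 is well known as a gene that ATF4 switches on during stress. The ATF4 letters occur in 3.45% and the TATA box in 12.4% of the 32851 promoters of the table. The E-box CAGCTG begins 97 bases before the Fgfr3 start and 74 bases before the Wnt9a start, and it is found in 13.0% of all promoters. Hes6, whose locus also begins at a RefSeq start, has the E-box 150 bases and TATAAA 28 bases before it. Wnt9a also holds TTCCCAC, the RBPJ letters on the reverse strand, which occur in 5.42% of all promoters. The letters CTTTGAT were in 0 of the 10 promoters at a locus start and in 3.21% of all, so that Axin2 has none in this window. A match is a string of letters only, and binding was not measured.

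CpG content differed widely among these promoters. The 250 bases before the start hold 48 CpGs in Wnt9a, 44 in Wnt4, 42 in Fzd9, 32 in Fzd5, 24 in Axin2, 23 in Spry2, 21 in Dll1, 19 in Fgfr3, 17 in Hes6 and 9 in Fgf21. These counts keep bases that GENCODE annotates as exon. Before the first annotated exon lie 67 of the 250 bases in Fzd9, 97 in Dll1 and 104 in Wnt4, and these 3 sequences were not printed for that reason. The median over the 10 genes was 23.5, against 6 over all promoters in the table, of which 17.9% hold at least 20. Both higher genes (Wnt9a, Fzd9) and a lower one (Wnt4) were thus among the richest in CpG, and Fgf21, with the largest increase, was the poorest of the 10. No methylation value was joined to these promoters here.

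Among Wnt ligands, 3 of 19 annotated genes were listed, and all 3 differed by more than 1.5-fold. Wnt10a (chr1:74792019-74804175), known for its part in tooth and skin development, was at 15.3 FPKM in siCon and 35.0 FPKM in siH19, a 2.28-fold higher level and a log2 difference of 1.19. Wnt9a (chr11:59306930-59333552), known from joint formation, was at 4.69 and 8.17 FPKM, 1.74-fold higher. Wnt4 (chr4:137277635-137299501), a ligand of kidney and gonad development, went the other way, from 1.66 to 0.953 FPKM, or 57.4% of siCon. Wnt10a was the most abundant of the 3 in both groups and made up 70.7% of their summed level in siCon and 79.3% in siH19. The summed level itself was 21.7 FPKM in siCon and 44.1 in siH19, 2.03 times higher. The ratio of Wnt10a to Wnt4 was 9.25 in siCon and 36.8 in siH19. The other 16 Wnt genes are not in the table.

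Frizzled receptors differed in both directions. Fzd2 (chr11:102604175-102609322) was the most abundant of the 5 listed and was at 12.0 FPKM in siCon and 18.6 in siH19, 1.56-fold higher. Fzd5 was at 2.01 and 2.95 FPKM (1.46-fold higher) and Fzd9 (chr5:135248938-135251047) at 0.344 and 0.859 FPKM (2.50-fold higher), below 1 FPKM in both groups. Fzd6 was at 9.92 and 6.68 FPKM, and Fzd3 at 7.26 and 4.99 FPKM. Both were lower by under 1.5-fold, at 67.4% and 68.8% of siCon. Fzd3 and Fzd6 are each other's closest relatives in the family and are known from planar cell polarity, whereas Fzd2, Fzd5 and Fzd9 belong to 3 other branches. The summed level of the 5 receptors was nearly the same, 31.5 FPKM in siCon and 34.1 in siH19, while its make-up differed. Fzd2 made up 38.0% of it in siCon and 54.6% in siH19, and the ratio of Fzd2 to Fzd6 was 1.21 and 2.79. The order of the receptors by level was the same in both groups, from Fzd2 through Fzd6, Fzd3 and Fzd5 to Fzd9. Fzd1, Fzd4, Fzd7, Fzd8 and Fzd10 are not in the table.

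**Figure D2:**
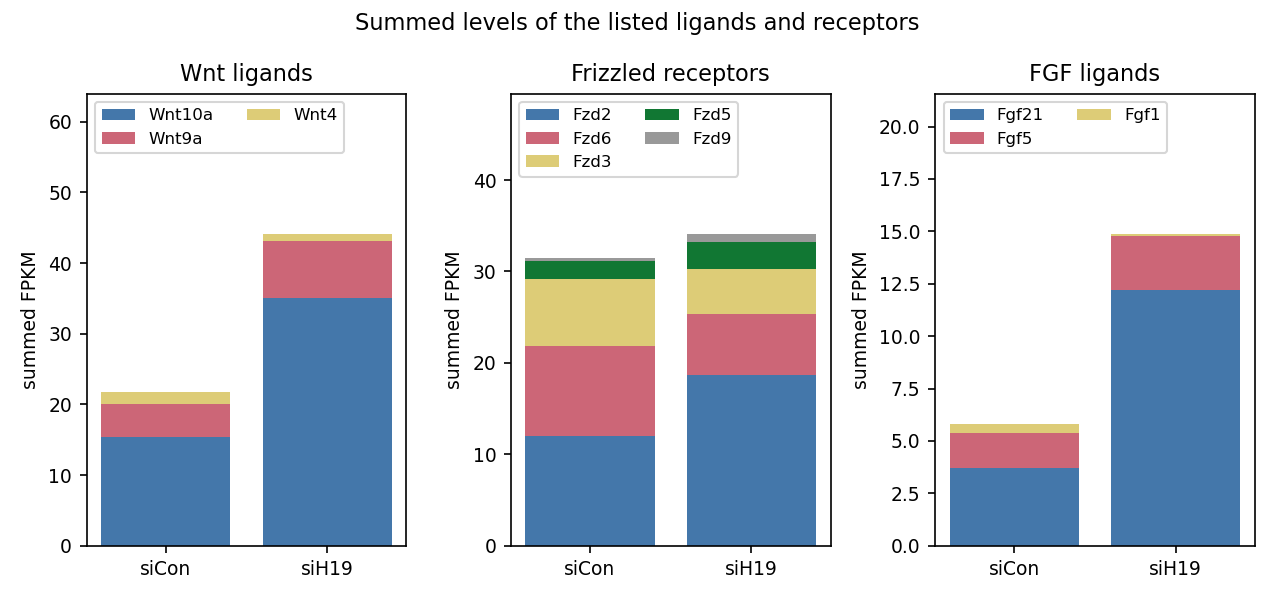
Summed FPKM (vertical axes, which start at 0 and differ between panels) of the listed Wnt ligands, Frizzled receptors and secreted FGF ligands in siCon and siH19, stacked by gene, 1 deposited value per group without error. The sums of the Wnt and FGF ligands are higher in siH19 (21.7 and 44.1 FPKM, 5.79 and 14.9 FPKM), whereas that of the receptors differs by 1.08 times and shifts towards Fzd2.

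The gene of the Frizzled co-receptor Lrp6 was at 10.6 FPKM in siCon and 13.5 in siH19 (1.27-fold higher). Axin2, which encodes a scaffold of the complex that destroys beta-catenin and is itself a target of the pathway, was at 1.79 and 2.36 FPKM (1.32-fold higher). Both differences were near the smallest that the table holds (0.31 on the log2 scale). Axin1, Lrp5 and the secreted inhibitors and agonists of the Dkk, Sfrp and Rspo families, 12 genes in all for these 3 families, are not in the table.

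Of 74 other genes of the Wnt pathway, 15 were listed, 13 higher and 2 lower in siH19, with a median log2 difference of 0.60. At least 1.5-fold higher were 9 of them and at least 1.5-fold lower 0. Over all listed features, 62.8% were higher and 37.4% at least 1.5-fold higher, and the counts by list and role given here and for the other pathways stand beside these shares. Porcn, which attaches the lipid that Wnt proteins need for secretion, was at 31.8 FPKM in siCon and 72.5 in siH19, 2.28-fold higher. The antagonist Wif1 showed the largest difference of the list, 1.65 on the log2 scale, at a low level (0.132 and 0.415 FPKM). Lef1, a nuclear partner of beta-catenin, was at 2.41 and 3.78 FPKM and its co-activator Bcl9 at 1.22 and 1.84 FPKM. The transducer gene Dvl3 was at 7.67 and 11.8 FPKM, Btrc, which marks beta-catenin for degradation, at 3.86 and 5.86 FPKM, and the corepressor gene Tle4 at 0.801 and 1.32 FPKM. Lgr6, a receptor for R-spondins, and Prickle3, a planar polarity gene, were 1.80-fold and 1.77-fold higher. The 2 lower genes, named after their values were seen, were Amer1 (log2 difference -0.58) and Daam2 (-0.49). By role, all 4 listed nuclear genes were higher, and of 6 listed genes of cytoplasmic transduction 4 were higher and 2 lower. The list fixed as Wnt targets held 18 symbols, 17 of them in the gene annotation used here. Of the 18, 4 were listed and all 4 were higher: Axin2, Lef1, Znrf3 and Wisp1, with log2 differences of 0.40, 0.65, 0.44 and 0.32. Of these, Axin2 is 1 of the 23 genes and Lef1 and Znrf3 are also in the list of other Wnt genes, so that Wisp1, named after its value was seen, alone was not yet counted. Positive regulators (Porcn, Lef1, Dvl3) and negative ones (Wif1, Btrc, Axin2) were therefore both among the higher genes.

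Of the Notch families, only Dll1 and Hes6 were listed, and they differed in opposite directions. Dll1 (chr17:15367354-15375823), a Delta ligand known for holding muscle progenitors undifferentiated, was at 9.78 FPKM in siCon and 6.02 in siH19, or 61.6% of siCon, with a log2 difference of -0.70. Hes6 (chr1:91411483-91413222), an unusual Hes factor that counters Hes1 and favours differentiation, was at 83.3 and 113 FPKM, 1.36-fold higher. Hes6 was the most abundant of the 23 genes in both groups. The ratio of Hes6 to Dll1 was 8.51 in siCon and 18.8 in siH19. None of the 4 Notch receptors, the 2 Jagged genes and the 3 Hey genes is in the table, and none of 9 genes fixed as Notch targets, Hes1 among them, was listed.

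Of 40 other genes of the Notch pathway, 7 were listed, 5 higher and 2 lower, with a median log2 difference of 0.52. The protease gene Adam10, whose product makes the first cut in activated Notch, was at 15.8 FPKM in siCon and 27.9 in siH19 (1.77-fold higher). Spen, a corepressor that acts with RBPJ, was at 4.63 and 7.57 FPKM. Rbpj itself, named after its value was seen, was 1.43-fold higher. The 2 lower genes, likewise named afterwards, were the ubiquitin ligase gene Mib2 (log2 difference -0.40) and the gamma-secretase gene Psen2 (-0.36). Mib1, also named afterwards, was higher (0.38). Of these 7 genes, 3 were at least 1.5-fold higher and 0 at least 1.5-fold lower.

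Of 22 annotated Fgf genes, 4 were listed. Fgf21 (chr7:45613890-45615490), an endocrine FGF that muscle and liver release under metabolic stress, was at 3.71 FPKM in siCon and 12.2 in siH19. This 3.29-fold difference was the largest increase among the 23 genes and ranked at place 179 of the 1896 higher features. Fgf5 (chr5:98254017-98277783), known for ending the growth phase of hair, was at 1.68 and 2.57 FPKM, 1.53-fold higher. Fgf1, which binds all FGF receptors, was lower, with 0.398 FPKM in siCon and 0.105 in siH19, or 26.4% of siCon. It ranked at place 26 of the 1123 lower features, at a level below 1 FPKM in both groups. The ratio of Fgf21 to Fgf5 was 2.20 in siCon and 4.76 in siH19. Fgf21 made up 64.1% of the summed level of these 3 secreted ligands in siCon and 82.0% in siH19. The intracellular Fgf13 was at 2.60 and 3.66 FPKM (1.40-fold higher).

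Among FGF receptors, only Fgfr3 was listed. Fgfr3 (chr5:33721724-33737318), known as a brake on bone growth, was at 1.30 FPKM in siCon and 2.50 in siH19, 1.92-fold higher. Fgfr1, Fgfr2 and Fgfr4 are not in the table, nor is Klb, the co-receptor of Fgf21. The feedback inhibitors differed in direction. Spry2 was at 30.9 FPKM in siCon and 23.4 in siH19 (75.8% of siCon), whereas Spred2 was at 8.17 and 10.6 FPKM (1.29-fold higher). The ratio of Spry2 to Spred2 was 3.78 and 2.22, so that Spry2 stayed the more abundant of the pair.

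Of 53 other genes of the FGF pathway, 15 were listed, 10 higher and 5 lower, with a median log2 difference of 0.49. At least 1.5-fold higher were 6 of them and at least 1.5-fold lower 2, Fgfbp3 and Dusp9. Fgfbp1, which releases FGFs from the matrix, showed the largest difference, from 4.00 FPKM in siCon to 19.8 in siH19 (4.96-fold higher), while its relative Fgfbp3 was lower at 0.877 and 0.514 FPKM. The receptor-like Fgfrl1, which lacks the kinase, was at 28.6 and 52.7 FPKM, and Hs6st1, which sulphates the heparan chains that FGFs need for binding, at 8.88 and 16.2 FPKM. Sulf1, which removes such sulphate groups and was named after its value was seen, was lower at 47.5 and 34.3 FPKM. All 5 listed adaptor genes were higher, with Gab2 at 3.94 and 7.62 FPKM. In the Ras and ERK cascade, Mapk3, which encodes ERK1, was at 14.2 and 21.6 FPKM and the Ras inhibitor Nf1 at 10.5 and 16.3 FPKM. The third listed gene of the cascade, Nras, named after its value was seen, was lower and the most abundant of them, at 50.2 and 38.6 FPKM. Both listed phosphatases of the dual-specificity family were lower, with Dusp9 at 1.13 and 0.611 FPKM, and Dusp7, named after its value was seen, at 8.06 and 6.11 FPKM. Of 22 genes fixed as FGF and ERK targets, 5 were listed, 3 higher and 2 lower. Egr3 was at 12.2 and 27.3 FPKM (2.23-fold higher) and Fos at 7.31 and 4.41 FPKM (1.66-fold lower), and the Dusp4, Dusp6, Etv4 and Etv5 genes, frequent readouts of FGF signalling, are not in the table.

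**Figure D3:**
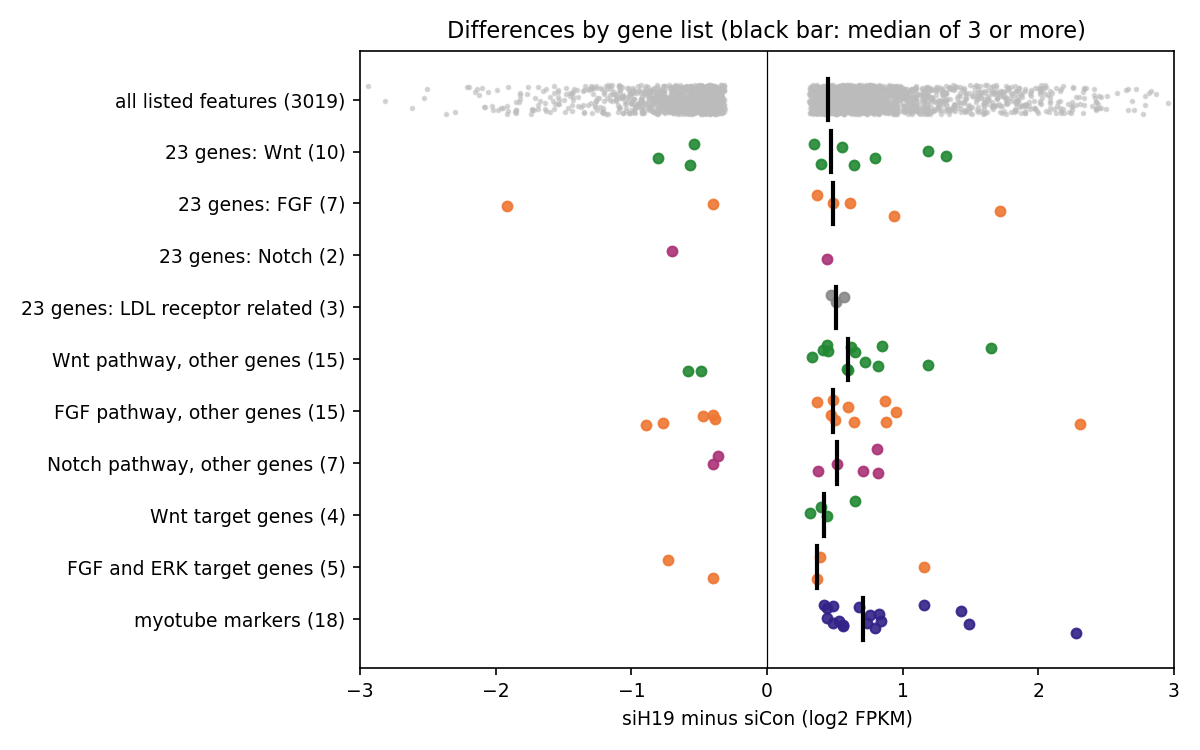
Difference between the groups (siH19 minus siCon, log2 FPKM) of each listed feature, by gene list, with the number of listed features in brackets and a black bar at the median where there are at least 3. The medians of the Wnt (0.475) and FGF (0.49) genes lie near that of all listed features (0.45), the empty middle is the range below 0.31 that the table does not hold, and 16 of the 3019 features lie beyond the plotted range.

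Of the genes outside the pathways, Lrp1, an endocytic receptor, was at 38.1 FPKM in siCon and 56.5 in siH19 (1.48-fold higher), Lrp12 at 10.1 and 14.4 FPKM (1.42-fold higher) and Lrp8, a receptor for reelin and apolipoprotein E, at 1.57 and 2.17 FPKM (1.39-fold higher). With Lrp6, all 4 listed genes of the Lrp family were higher, each by under 1.5-fold, where 62.8% of all listed features were higher. The other 8 annotated genes of that name are not in the table. Fgfr1op was at 5.58 and 7.73 FPKM, 1.39-fold higher.

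The size of the listed differences varied with the level. Of 566 listed features with a mean log2 FPKM below 0, 95.6% differed by at least 1.5-fold, with a median absolute log2 difference of 1.21. Fzd9 (1.32) and Fgf1 (-1.92) fall in that range, where passing the 1.5-fold limit was the rule, and 55.8% and 83.0% of the features there had a smaller absolute difference. Of 919 features between 2 and 4, 40.9% passed it, with a median of 0.54. The 10 signalling genes in that range included Fgf21 (1.72), Wnt9a (0.80), Dll1 (-0.70) and Fzd2 (0.64), and the absolute difference was smaller than theirs in 97.0%, 79.3%, 70.2% and 64.7% of the features. Lrp6 (0.35) and Spred2 (0.37) were near the lower end, with 2.83% and 6.96% of features below them. Wnt10a (1.19) lies between 4 and 6, where 34.5% of 766 features passed and the median was 0.49, and 94.3% of these features had a smaller absolute difference. Among the 528 features between 0 and 2, Fgfr3 (0.94) exceeded 71.4%, Wnt4 (-0.80) 57.8% and Axin2 (0.40) 2.08% in absolute difference.

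**Figure D4:**
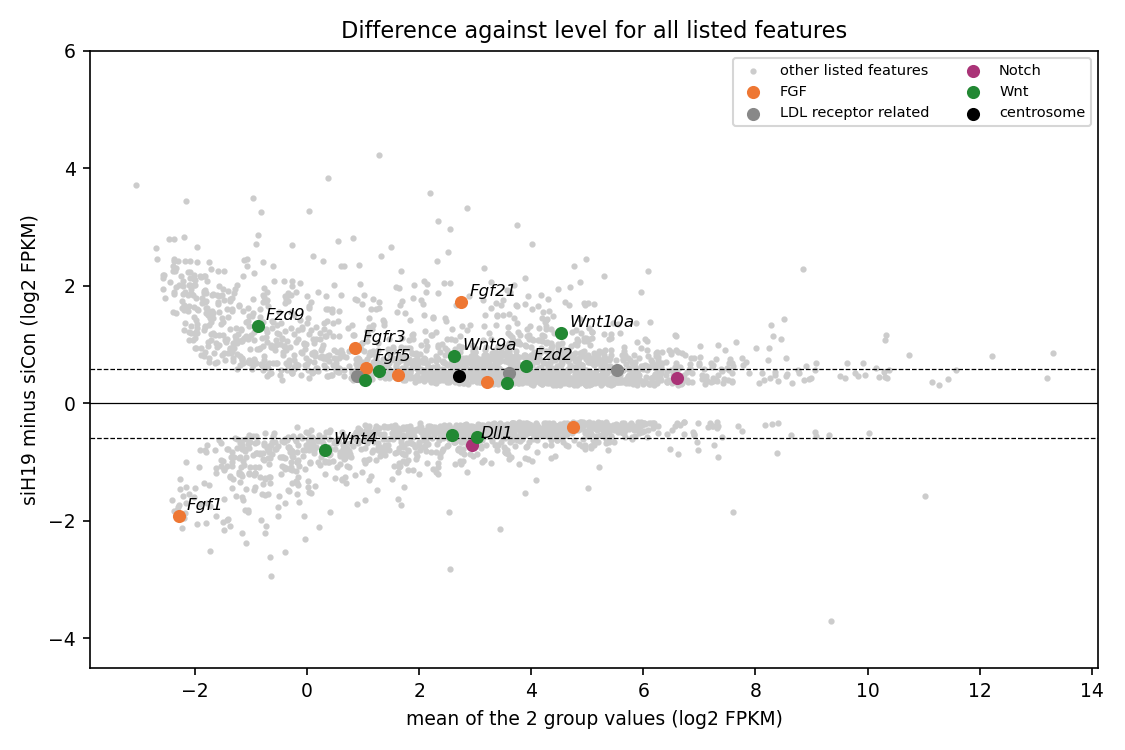
Difference between the groups (siH19 minus siCon, log2 FPKM, vertical axis) against the mean of the group values (log2 FPKM, horizontal axis) for the 3015 features above the floor in both groups, 1 point per feature without error. Dashed lines mark 1.5-fold, the genes past them are named, and Fgf21 and Wnt10a exceed 97.0% and 94.3% of the features in their range of levels in absolute difference, whereas Fzd9 exceeds 55.8%.

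The assembled loci were set beside the GENCODE annotation of GRCm38. All 23 symbols are annotated there as protein coding, and 19 loci covered at least 95% of the annotated gene. The Fgf13 locus covered 37.3% of its gene and 4 of 9 annotated transcript starts. Which transcripts its value holds was not tested. The Hes6 locus covered 68.1%, that of Dll1 89.0% and that of Fzd9 92.0%. The Fgf1 locus was longer than its gene, 132602 against 90800 bases. On the minus strand it began at base 38971274, upstream of the annotated 38929472. It held exons of 2 other annotated genes, which share no exon bases with Fgf1. What the added stretch contributes to the Fgf1 value was not tested. Exon bases were shared with an annotated noncoding or antisense neighbour at 4 genes, Fzd5 (Gm38058), Axin2 (Gm11670), Dll1 (A930024N18Rik) and Fgfr3 (G630022F23Rik), each on the other strand. The library kit marks the strand of the RNA, but whether the strand was used when fragments were assigned is not given in the sources used here. Whether reads of the neighbours are part of these 4 values was not tested. None of these 4 neighbours is itself in the table.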

How the data were processed

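RNA-seq was carried out on 6 libraries of C3H myotubes, 3 siCon and 3 siH19, from 1 µg total RNA depleted of rRNA, read from both ends for 76 cycles. The submitters' processing notes name TopHat2 2.0.7, TopHat 1.0.0 and Cuffdiff 2.1.1 with mm10. The authors deposited log2 FPKM, 1 value per group over its 3 libraries, rounded to 2 decimals with a floor at -10, which none of the 23 genes reached. The columns holding the authors' own fold change and q value were not used, and their call was read only to count the features marked significant. Differences were recomputed from the group values, so rounding can move each by up to 0.01. Depth is unknown.

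The 23 genes and the gene lists were chosen with earlier results of these data known. All 23 genes were named. Other genes of the lists could be named where they differed by at least 1.5-fold or were 1 of the 3 largest of a list, with exceptions stated. Listed neighbours within 100 kb were named outside this rule. Of 10 such myotube marker features only Myog and Actc1 were named, and a gene of the Notch list is not reported here. Levels were compared between genes as FPKM, which is scaled to transcript length. Locus starts, which count from 0 in the table, are given counted from 1. Promoters came from RefSeq and gene models from GENCODE M21. Counting was tested on simulated data. Python 3.11.15, numpy 2.4.6, pandas 2.3.3 and matplotlib 3.10.9 were used.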

Additional observations from a re-analysis of the deposited data

How the results depend on the processing

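No paired analysis was possible because the table holds 1 value per group, and for the same reason no replicate could be left out and no other normalisation between libraries could be tried. With a 2-fold limit, 3 genes were higher and 1 lower, and with any listed difference 17 and 6. On the log2(FPKM + 1) scale, which shrinks differences of low genes, 5 were higher and 1 lower, with a median of 0.39. Lowering every difference by the median of all listed features gave 3 higher, 6 lower and a median of 0.02. Lowering it by 0.41, the median of features with a symbol, which was chosen after seeing the data, gave 3, 6 and 0.06. The shift itself brings every lower gene past the limit. Without Lrp1, Lrp8 and Lrp12 the median was 0.45, and without Fgfr1op, also chosen afterwards, 0.48, both with 7 higher and 3 lower. Leaving out genes below 1 FPKM in both groups left 6 higher and 2 lower. Keeping only features with 1 symbol could change nothing, since none of the 23 genes shares its feature with another symbol. Without values per library, none of these settings shows how far a difference exceeds the spread between cultures.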

Other observations

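Listed features lay within 100 kb of 8 of the 23 genes, 14 in all, and 7 of these 14 differed in the same direction as the signalling gene. Of all listed features, 62.8% were higher. Beside Wnt10a (log2 difference 1.19), both listed neighbours were higher, Cyp27a1 (2.28), a sterol hydroxylase gene, and Prkag3 (1.32), which encodes a muscle subunit of AMP-activated kinase. Beside Fgf21 (1.72), Ntn5 was higher (1.85) while Mamstr (-1.06), a coactivator of MEF2 factors in muscle, and Car11 (-0.56) were lower. Fzd3 (-0.54) had 1 lower neighbour, Fbxo16 (-0.87), and 1 higher, Extl3 (0.39). The neighbours of Lrp1 (0.57) and Lrp8 (0.47) were higher, R3hdm2 (1.76) and 0610037L13Rik (0.59). Those of Fgf5 (0.61) and Fgfr3 (0.94) were lower, Prdm8 (-0.70) and Slbp (-0.36). Beside Hes6 (0.44), Ilkap was higher (0.46) while Scly (-0.39) and Per2 (-0.41) were lower.

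A list of 21 genes known as targets of ATF4 or of the stress response around it was written after the value of Fgf21 was seen. Of these, 5 were listed, 2 higher and 3 lower in siH19. Chac1 was 2.00-fold higher (3.58 and 7.16 FPKM) and Mthfd2 1.27-fold higher, whereas Sesn2, Atf3 and Ddit4 had log2 differences of -0.55, -0.48 and -0.45. Mthfd2 and Ddit4 were named after their values were seen. Atf4, Ddit3, Trib3, Asns and Gdf15 are not in the table.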
